A study of Mus musculus with 4 samples.

Results

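The genes examined here were the 8 genes of MHC class II antigen presentation H2-Aa, H2-Ab1, H2-Eb1, H2-DMa, H2-DMb1, H2-DMb2, Cd74 and Ciita. They were taken by gene symbol, and each symbol was found once in each of the 4 gene tables, so that 8 of the 27998 listed genes were members. The data were single-cell RNA-seq UMI counts (a UMI is a tag that lets each captured mRNA molecule be counted once) of CD45+ cells, that is leukocytes, from the nasal mucosa of C57BL/6 mice aged 8 weeks. There were 4 libraries, 1 per group, in a design of treatment (vehicle or ribavirin) by allergen (without or with OVA): Vehicle and Ribavirin without it, Vehicle-OVA and Ribavirin-OVA with it. In the model of allergic rhinitis, per the study's methods, ovalbumin (OVA) was injected with alum to sensitise the mice and then dripped into the nose. Ribavirin is an antiviral drug, which the series names as a spray. Its dose and timing and the number of mice behind a library were not given in the sources used here. The labels name magnetic enrichment of the CD45+ cells, while the series text names fluorescence-activated sorting. With 1 library per group no difference could be set against a spread between mice, so no test was run. All intervals are 95% intervals that cover counting error only.

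MHC class II molecules show peptides from material taken up by a cell to CD4+ T cells. They are made of an alpha and a beta chain, encoded in the C57BL/6 mouse by H2-Aa and H2-Ab1 for the molecule I-A, and H2-Eb1 encodes the beta chain of I-E, whose alpha chain gene is inactive in this strain. Cd74 encodes the invariant chain, which fills the peptide groove until proteases of the endosome cut it away. H2-DMa encodes the alpha chain and H2-DMb1 and H2-DMb2 encode beta chains of H2-DM, which exchanges the last invariant chain fragment for other peptides. Ciita encodes the coactivator that drives transcription of all these genes through a shared X-Y promoter module, and is itself induced by interferon-gamma. Dendritic cells, B cells and macrophages are the classic class II-positive cells, and mouse T cells and neutrophils make little or none.

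In the mouse genome build GRCm38 (GENCODE M21 annotation), 6 of the 8 genes lie within 197 kb of chromosome 17, in the order H2-DMa (chr17:34119541-34139101), H2-DMb2 (chr17:34143307-34151555), H2-DMb1 (chr17:34153072-34160230), H2-Ab1 (chr17:34257689-34269419), H2-Aa (chr17:34282744-34287823) and H2-Eb1 (chr17:34305867-34316674). Of these, H2-Aa is on the minus strand and the other 5 are on the plus strand. Ciita is at chr16:10480059-10528418, on the plus strand. All 8 genes are protein-coding, and the longest coding transcripts of these 7 have 2 to 19 exons. RefSeq promoters of GRCm38.p6, each from 250 bases before to 50 bases after a gene start, were matched by symbol for 5 of the 8 members with 6 entries, 2 of them for H2-DMa. H2-Ab1, Cd74 and Ciita had no entry. The RefSeq gene starts behind the windows of H2-DMa, H2-DMb1 and H2-DMb2 lie downstream of the GENCODE gene starts, within the gene spans given above. The H2-DMa windows are chr17:34122582-34122881 and chr17:34125268-34125567.

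The promoters of 2 chain genes and both DM beta genes are printed because their products are set against each other in the results below. Capitals mark the Y box (TGATTGG) and the X boxes (X1, ACNGATG, and X2, GACGTCA), searched on both strands. An X1 match in the H2-Aa promoter lies on the opposite strand to its gene and is shown as its reverse complement. These 3 short motifs were chosen after the members' promoters had been seen.
H2-Aa, chr17:34287774-34288073, minus strand: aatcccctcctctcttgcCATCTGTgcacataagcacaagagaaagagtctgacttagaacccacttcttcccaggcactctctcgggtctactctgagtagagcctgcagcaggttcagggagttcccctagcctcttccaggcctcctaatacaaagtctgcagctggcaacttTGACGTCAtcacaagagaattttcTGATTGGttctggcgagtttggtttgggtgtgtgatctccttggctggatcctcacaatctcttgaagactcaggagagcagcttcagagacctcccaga
H2-Eb1, chr17:34305617-34305916, plus strand: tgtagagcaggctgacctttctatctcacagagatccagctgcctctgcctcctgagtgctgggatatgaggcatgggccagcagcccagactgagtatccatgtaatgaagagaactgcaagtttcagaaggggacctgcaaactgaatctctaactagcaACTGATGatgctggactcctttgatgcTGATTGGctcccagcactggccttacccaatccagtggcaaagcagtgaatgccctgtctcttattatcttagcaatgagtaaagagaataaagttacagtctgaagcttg
H2-DMb1, chr17:34152941-34153240, plus strand: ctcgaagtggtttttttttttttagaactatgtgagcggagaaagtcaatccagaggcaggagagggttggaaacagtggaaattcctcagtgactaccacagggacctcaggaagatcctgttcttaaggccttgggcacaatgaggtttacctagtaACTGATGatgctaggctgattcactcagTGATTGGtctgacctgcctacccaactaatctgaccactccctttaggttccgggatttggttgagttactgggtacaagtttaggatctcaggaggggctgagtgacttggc
H2-DMb2, chr17:34144999-34145298, plus strand: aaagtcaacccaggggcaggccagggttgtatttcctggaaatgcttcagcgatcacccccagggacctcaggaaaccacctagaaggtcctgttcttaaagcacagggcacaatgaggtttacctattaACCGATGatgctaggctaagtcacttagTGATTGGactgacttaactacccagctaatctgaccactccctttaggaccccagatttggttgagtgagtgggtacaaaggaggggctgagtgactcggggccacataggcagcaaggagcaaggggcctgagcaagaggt
The Y box began 50 bases before the gene start in H2-Aa, 61 in H2-Eb1, 63 in H2-DMb1 and 92 in H2-DMb2. An X1 box stood 27 bases upstream of it in H2-Eb1 and 28 bases upstream in both DM beta genes, and in H2-Aa an X2 box stood 23 bases upstream. A Y box alone was found in 7.82% of all 32851 promoters, X1 in 9.85% and X2 in 3.21%. A Y box with an X box up to 60 bases before it on the same strand was found in 44 promoters (0.134%), among them the 4 shown. Neither H2-DMa window held any of the 3 motifs. Both lie inside the GENCODE span of the gene, and the sequence before its GENCODE start was not searched, so a module there cannot be judged. The promoters of H2-Oa and H2-Ob, the genes of the DM inhibitor H2-O, held a Y box but not this arrangement. These matches describe letters in a window and no more.

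The libraries held 10311 to 28277 deposited cells and 91742940 to 171873110 UMIs. After filters and doublet removal 65970 cells were left, with a median of 3254.5 to 4916 UMIs per cell. Pairs of libraries shared 57 to 174 cell barcodes, at most 0.909% of a library. Cells were clustered without the class II genes, and 38 of the 41 clusters could be given 1 of 18 cell class names from markers. The classes were rebuilt here and are written with "-like". Neutrophil-like cells were 10.9%, 45.5%, 19.9% and 10.7% of the cells of Vehicle, Vehicle-OVA, Ribavirin and Ribavirin-OVA, and epithelial-like and olfactory neuron-like clusters stood among the cells despite the CD45 enrichment. Values for the 4 libraries are given in that order throughout. The unit is CPM, the UMIs of a gene as a share of all UMIs of the same cells, on a scale where the 4211 CPM of H2-Aa in all Vehicle cells are 0.421% of their UMIs. A UMI marks one 3' end, so that it does not grow with transcript length.

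The 3 chain genes were at high levels in macrophage-like, monocyte-like and conventional dendritic cell (cDC)-like cells. Their summed level was 29589, 6553, 26971 and 8641 CPM in macrophage-like cells. It was 27365, 10472, 24362 and 12068 CPM in monocyte-like cells and 24946, 16721, 23355 and 19791 CPM in cDC-like cells. The order of these classes therefore depended on the library: macrophage-like cells were first in the libraries without OVA and cDC-like cells first in both with OVA. B cell-like cells held 8865, 7911, 6341 and 5843 CPM, above macrophage-like cells in Vehicle-OVA and under all 3 classes in the other libraries. They were followed by plasmacytoid dendritic cell (pDC)-like cells at 5356, 2785, 4804 and 3810 CPM. The ranges of B cell-like and pDC-like cells over the 4 libraries did not overlap. Nonclassical monocyte-like cells held 807 to 2608 CPM and plasma cell-like cells 1086 to 1470 CPM, and these ranges overlapped.

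Cells that make little or no class II carried a low level too. Neutrophil-like cells held 584, 228, 578 and 282 CPM of the summed chains and natural killer (NK)-like cells 404, 81.7, 327 and 159 CPM. In both classes the level was higher in the 2 libraries whose cells together held more class II (12322 and 9107 CPM against 2978 and 3595 CPM in all cells). T cell-like cells held 658, 276, 1251 and 734 CPM. Within them a proliferating cluster led by Hist1h1b, Hist1h2ae and Hist1h2ab, with 58 to 424 cells per library and 2.90 times the median UMIs of its libraries, held 2013, 1755, 4863 and 3854 CPM. In this cluster macrophage markers summed to 624, 3163, 1009 and 2466 CPM and T cell markers to 2158, 1735, 1779 and 1326 CPM. In all T cell-like cells macrophage markers were at 433 to 621 CPM. The class II level of T cell-like cells was thus not even. How much of it came from free RNA or doublets was not tested. Values at or under the level of neutrophil-like cells are read here as background.

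**Figure D1:**
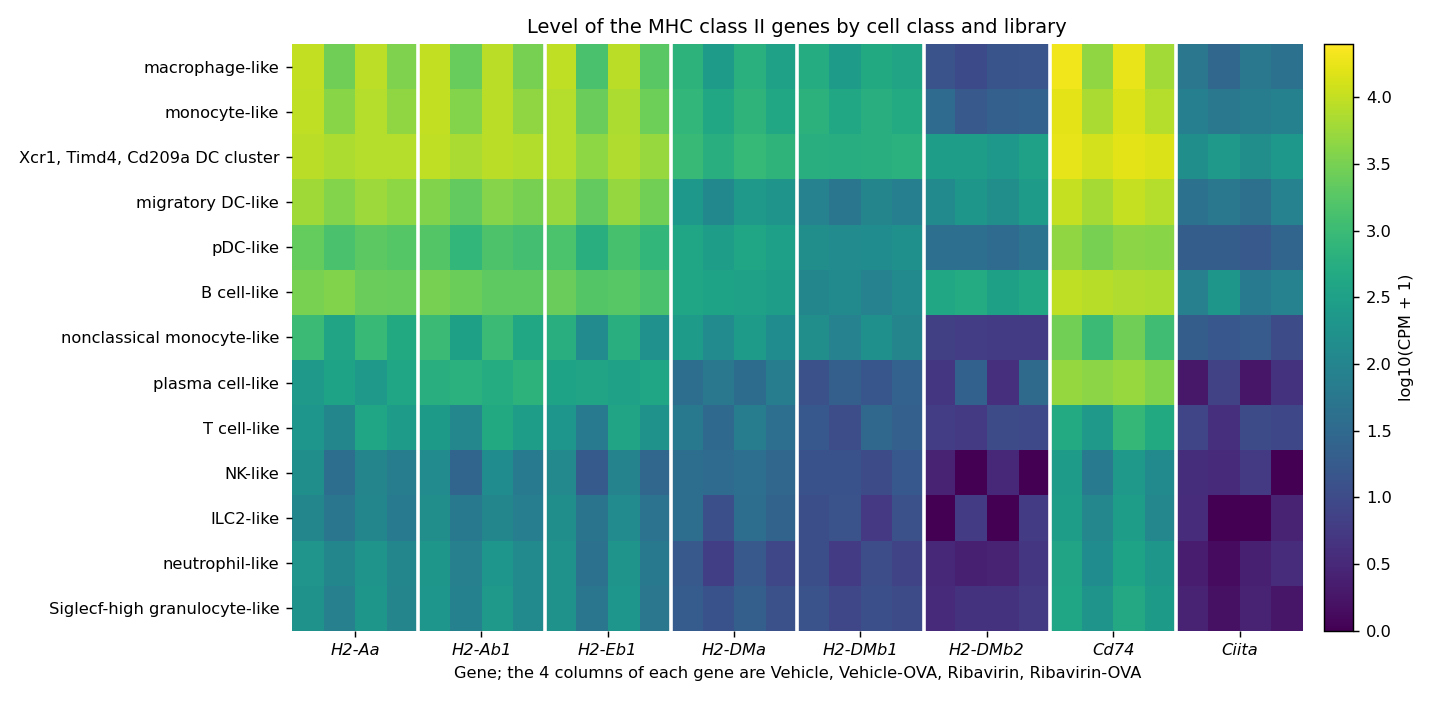
Heat map of log10(CPM + 1) of the 8 genes (groups of 4 columns, 1 column per library in the order named under the axis) by cell class or cluster (rows), with brighter colours for higher levels. The chain genes and Cd74 are at 1390 CPM or more in each library in the macrophage-like, monocyte-like and Xcr1 rows, while H2-DMb2 is at 224 CPM or more in each library in the Xcr1 and B cell-like rows and under 50 CPM in the macrophage-like, monocyte-like and pDC-like rows.

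The question of the comparison with OVA was how class II transcripts differ between cells of mice with and without the allergen, separately under vehicle and under ribavirin. Macrophage-like cells held much less class II with OVA. Their summed chains were 4.52-fold lower under vehicle (4.49 to 4.54) and 3.12-fold lower under ribavirin (3.10 to 3.14). H2-Eb1, the beta chain of I-E, differed most, at 9572, 1390, 8746 and 1914 CPM, which is 6.88-fold lower (6.80 to 6.97) and 4.57-fold lower (4.51 to 4.62). H2-Aa was at 10074, 2752, 9261 and 3609 CPM and H2-Ab1 at 9943, 2411, 8964 and 3118 CPM. Without OVA the 3 chains stood close to each other, and with OVA H2-Eb1 was far under the other two in both libraries.

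Of the 8 members, 7 were at least 1.5-fold lower with OVA under vehicle in macrophage-like cells, where 12.6% of the 11828 genes compared were that much lower, and 5 of 8 under ribavirin, where 9.38% were. The median log2 ratio of the members was -1.65 and -1.15, beside 0.19 and 0.21 over all genes compared. This upward shift of all genes reached 0.40 in cDC-like cells in both pairs, 0.45 and 0.26 in B cell-like cells and 0.32 in all cells under ribavirin, and ratios taken relative to it are lower by these amounts. At a coarser clustering (Leiden resolution 0.5) the macrophage-like difference in the summed chains was -1.33 and -1.08 on the log2 scale, in place of -2.17 and -1.64.

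The macrophage-like class was made of different clusters with and without OVA. A cluster led by Vcam1, Fcrls and Ccl7 held 1866, 144, 1544 and 194 cells, and a cluster led by Ccl24, Arg1 and Slc7a2 held 15, 1839, 51 and 1201. Ccl24 and Arg1 are genes known to respond to interleukin-4 in macrophages. Within the Vcam1 cluster the summed chains were 31399, 14906, 28338 and 14249 CPM, 2.11-fold lower (2.08 to 2.13) and 1.99-fold lower (1.97 to 2.01) with OVA. Within the Arg1 cluster they were 18088, 5920, 14148 and 7791 CPM, 3.06-fold lower (2.94 to 3.17) and 1.82-fold lower (1.77 to 1.86). The Vehicle level of the Arg1 cluster rests on 15 cells. The level was thus lower with OVA inside both clusters, by less than in the class as a whole, and lower in the Arg1 cluster than in the Vcam1 cluster of the same library in all 4 libraries.

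Marker levels in macrophage-like cells differed between the libraries as well. The summed level of the 7 monocyte markers in macrophage-like cells was 399.9, 2584, 429.6 and 3141 CPM and that of the 9 macrophage markers 67544, 19758, 61945 and 25303 CPM. All of these markers were detected in each library. Neutrophil markers (9 genes) were at 447.9, 1556, 668.7 and 586.9 CPM, higher with OVA under vehicle alone. The part of these markers in the class II difference was not tested. Clustering was done without the class II genes but with the other genes of these cells. The third cluster of the class, led by Crybb1, Sall1 and Sall3 with 37 to 156 cells per library, carried little class II, with 534, 137, 873 and 152 CPM of the summed chains, which were also lower with OVA in both pairs. Its leading genes are known from microglia. It held H2-DMa at 219, 115, 227 and 123 CPM, so that DM alpha mRNA was present where the chains were near background.

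**Figure D2:**
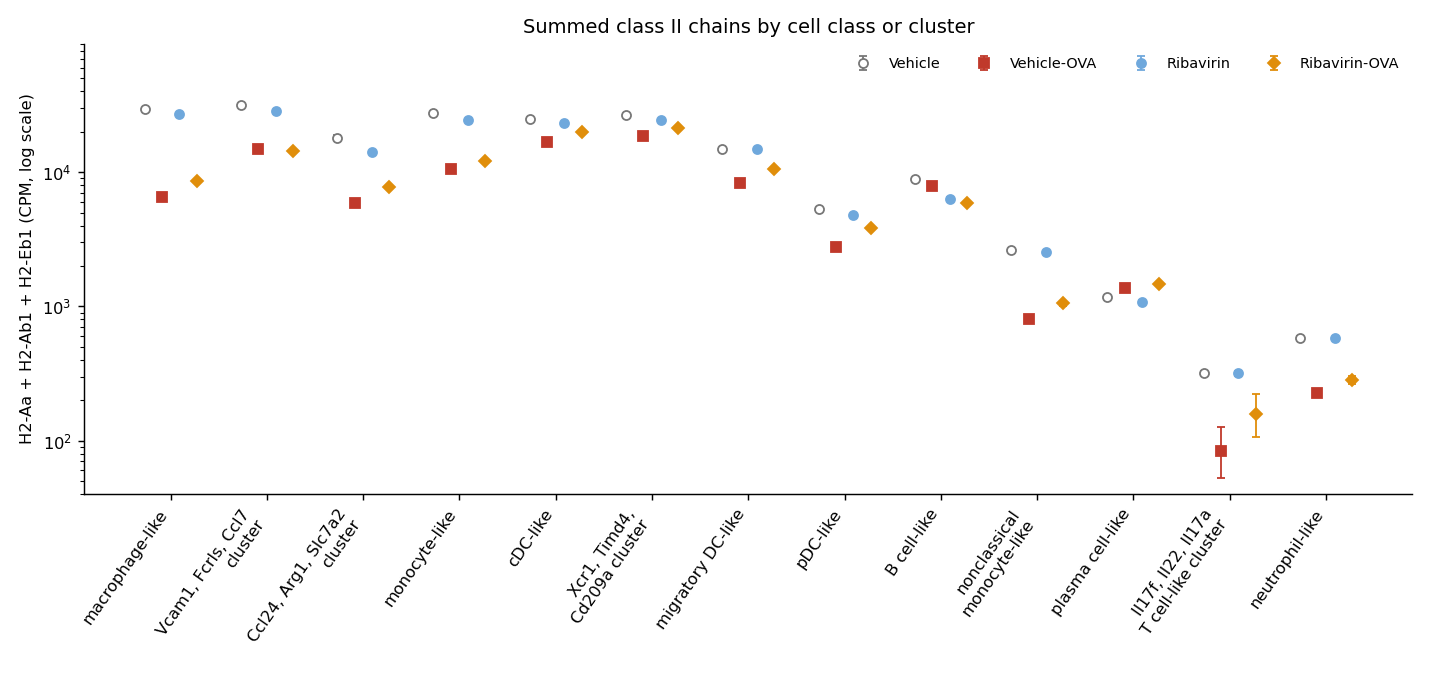
Summed level of H2-Aa, H2-Ab1 and H2-Eb1 (CPM, log scale) by cell class or cluster, 1 point per library with its 95% Poisson interval, which covers counting error only. The 2 libraries with OVA lie under the 2 without OVA in the macrophage-like, monocyte-like and cDC-like classes and in the clusters within them, while plasma cell-like cells lie between 1086 and 1470 CPM in all 4. The Vehicle point of the Arg1 cluster rests on 15 cells.

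Per cell, the 8 genes together made up a median of 5.78%, 2.67%, 5.18% and 2.75% of the UMIs of a cell in the Vcam1 cluster. In the Arg1 cluster the median was 0.51% in Vehicle-OVA, 2.51% in Ribavirin and 0.94% in Ribavirin-OVA. The spread between cells was wide. In the Arg1 cluster of Vehicle-OVA the quartiles were 0.09% and 1.51%, and in the Vcam1 cluster of Vehicle they were 4.09% and 7.09%. These middle ranges, which differ in both cluster and allergen, did not overlap. Within the Vcam1 cluster they did overlap between libraries without and with OVA. They were 4.09% to 7.09% against 0.42% to 4.61% under vehicle and 3.13% to 6.48% against 0.89% to 4.34% under ribavirin. In the Arg1 cluster under ribavirin they were 0.82% to 3.62% against 0.19% to 1.94%.

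**Figure D3:**
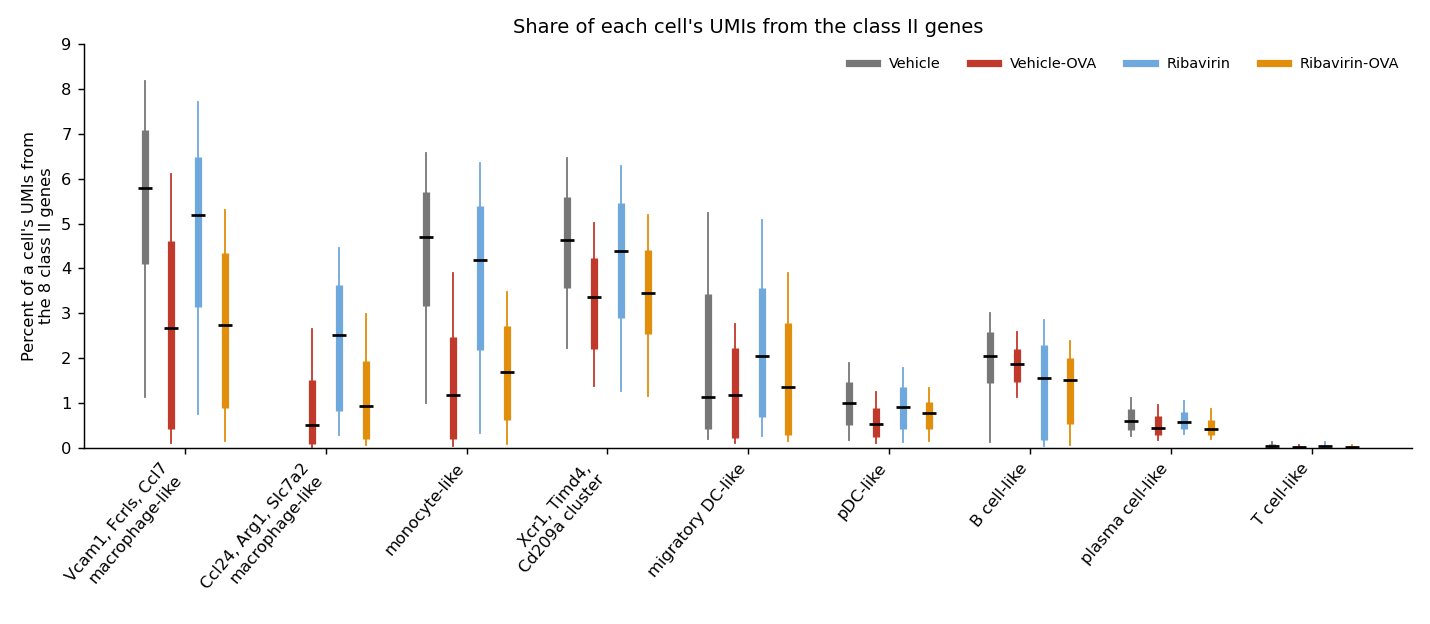
Percent of the UMIs of single cells that came from the 8 genes, by cluster or class and library (line from the 10th to the 90th percentile, box over the quartiles and mark at the median over cells). Medians in the Vcam1 cluster were 5.78% and 5.18% without OVA and 2.67% and 2.75% with OVA, and the Arg1 cluster of Vehicle-OVA had a median of 0.51%.

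Monocyte-like cells, a cluster led by Ly6i, Cxcl9 and Cfb, were 2578 and 1800 cells without OVA but 131 and 92 with OVA. Cxcl9 is a chemokine gene induced by interferon-gamma. Their summed chains were 2.61-fold lower with OVA under vehicle (2.56 to 2.66) and 2.02-fold lower under ribavirin (1.98 to 2.06). With each cell assigned by its own marker UMIs the log2 ratios were -2.02 and -2.00, in place of -1.39 and -1.01. Summed macrophage markers in monocyte-like cells were at 17274, 7424, 16208 and 8168 CPM and neutrophil markers at 462.3, 1720, 702.6 and 544.1 CPM. The monocyte markers summed to 5048, 8033, 5201 and 5046 CPM, above the macrophage markers in Vehicle-OVA alone. In the Arg1 cluster of Vehicle-OVA macrophage markers were at 16666 CPM, between the Ribavirin and Vehicle values given here. The name of this class is thus uncertain. The part of these markers in the class II difference was not tested. Again H2-Eb1 differed most of the chains, at 8138, 2482, 7139 and 2634 CPM. Of the members, 7 of 8 and 5 of 8 were at least 1.5-fold lower, beside 15.5% and 13.5% of all genes. Nonclassical monocyte-like cells were a cluster led by Ace, Vcan and Cd300e (223 to 444 cells per library). Vcan and F13a1, which served as markers of the monocyte-like class, were among its 10 leading genes. The cluster was therefore not marked by nonclassical genes alone. In these cells the chains were 3.23-fold lower (3.06 to 3.41) and 2.42-fold lower (2.31 to 2.53). There 6 of the 7 members with at least 50 UMIs passed the fold under vehicle and 7 of 7 under ribavirin, beside 8.31% and 6.72% of all genes. H2-DMb2 was under this count. Most nonclassical monocyte-like cells held little class II, with a per-cell median of 0.13%, 0.043%, 0.11% and 0.062% of UMIs from the 8 genes and a 90th percentile of 1.82%, 0.65%, 1.63% and 0.56%. The medians of neutrophil-like cells were 0.074%, 0.028%, 0.065% and 0.042%. With doublets kept the log2 ratios of the chains were -2.82 and -2.21, in place of -1.69 and -1.27.

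In cDC-like cells the difference with OVA was smaller. The class joined a cluster led by Xcr1, Timd4 and Cd209a (833, 220, 811 and 202 cells) with a migratory dendritic cell-like cluster led by Fscn1, Ccr7 and Nudt17 (205, 60, 127 and 53 cells). Their summed chains were 1.49-fold lower under vehicle (1.48 to 1.51) and 1.18-fold lower under ribavirin (1.17 to 1.19). H2-Eb1 was at 7676, 4131, 7140 and 4958 CPM and passed the fold of 1.5 under vehicle alone (1.86-fold, 1.82 to 1.89, against 1.44-fold, 1.42 to 1.46). H2-Aa, at 8544, 6617, 7935 and 7594 CPM, was 1.29-fold lower (1.27 to 1.31) and 1.04-fold lower (1.03 to 1.06). Under vehicle 2 of 8 members passed the fold in the lower direction, H2-Eb1 and H2-DMa, where 7.73% of 10349 genes did, and 0 of 8 under ribavirin, where 6.77% did. Relative to the median of all genes these counts were 6 and 4, and with each cell assigned by its own marker UMIs they were 6 and 2.

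Both cDC-like clusters held less with OVA in their summed counts. The Xcr1 cluster held 26488, 18649, 24452 and 21432 CPM of the summed chains and the migratory cluster 14829, 8260, 14840 and 10549 CPM. Migratory cells thus held less chain mRNA than the Xcr1 cluster in each library, and differed more with OVA (1.80-fold lower, 1.74 to 1.85, and 1.41-fold lower, 1.36 to 1.45). The per-cell median share of the 8 genes in migratory cells was 1.14%, 1.18%, 2.06% and 1.37% of UMIs, and so was not lower with OVA under vehicle. Their median depth was 5990, 10429, 8946 and 6487 UMIs. Neutrophil markers in cDC-like cells summed to 479.6, 1655, 970 and 408.8 CPM and macrophage markers to 404.5, 507, 686.1 and 428.5 CPM. The Xcr1 cluster joined cells with markers of both cDC subsets. Of its 833 cells in Vehicle, 139 had UMIs of Xcr1 or Clec9a and none of Cd209a or Clec10a, and 397 the reverse. The summed chains were 25096, 20831, 27631 and 22902 CPM in the former and 27686, 18189, 24939 and 21774 CPM in the latter. The former were lower in Vehicle and higher in the other 3 libraries.

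pDC-like cells held 1.92-fold less of the summed chains with OVA under vehicle (1.87 to 1.98) and 1.26-fold less under ribavirin (1.23 to 1.29). With a mitochondrial limit of 5% the latter turned to a log2 ratio of 0.018. All 3 chain genes passed the fold under vehicle, beside 8.16% of all genes, and under ribavirin H2-Eb1 alone, beside 9.61%. Ciita was higher there with OVA under ribavirin, as were 27.6% of all genes. B cell-like cells, 115 to 308 per library, differed little. Their summed chains were 1.12-fold lower under vehicle (1.09 to 1.15) and 1.09-fold lower under ribavirin (1.05 to 1.13), and 0 of 8 members were 1.5-fold lower in either pair, beside 10.2% and 11.5% of all genes. With each library clustered on its own, or with a mitochondrial limit of 5%, the value under ribavirin was above 0 (0.067 and 0.076 on the log2 scale). The B cell-like cluster was uneven, since Rag1, a gene of developing B cells, was among its 10 leading genes. The 8 genes made up a median of 2.06%, 1.87%, 1.56% and 1.52% of the UMIs of a cell, while the 10th percentile was 0.14%, 1.15%, 0.05% and 0.06%.

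Plasma cell-like cells differed in the other direction, with summed chains at 1184, 1381, 1086 and 1470 CPM (log2 ratios of 0.22 and 0.44). Relative to the median of all genes this direction turned (-0.28 and -0.08), as it did with doublets kept (-0.30 and -0.25). Under vehicle it also turned with each cell assigned by its own marker UMIs (-0.38) and in the mean CPM of single cells (-0.19). The clusters behind them differed between libraries. A cluster led by Prg2, Jchain and Tnfrsf17 held 1126, 46, 512 and 29 cells, a cluster led by Slpi, Ovol3 and Stac2 held 0, 203, 5 and 311, and a proliferating cluster led by Hist1h2ap, Rrm2 and Ccna2 held 138, 54, 46 and 176. In the proliferating cluster the summed chains were 1189, 2265, 1132 and 1832 CPM. In the Slpi cluster, by contrast, they were 973 CPM in Vehicle-OVA and 1111 CPM in Ribavirin-OVA. Under each treatment 5 of 8 members were at least 1.5-fold higher with OVA (H2-Aa, H2-DMa, H2-DMb1, H2-DMb2 and Ciita), beside 44.6% and 45.9% of all genes, so that this count was near the background.

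**Figure D4:**
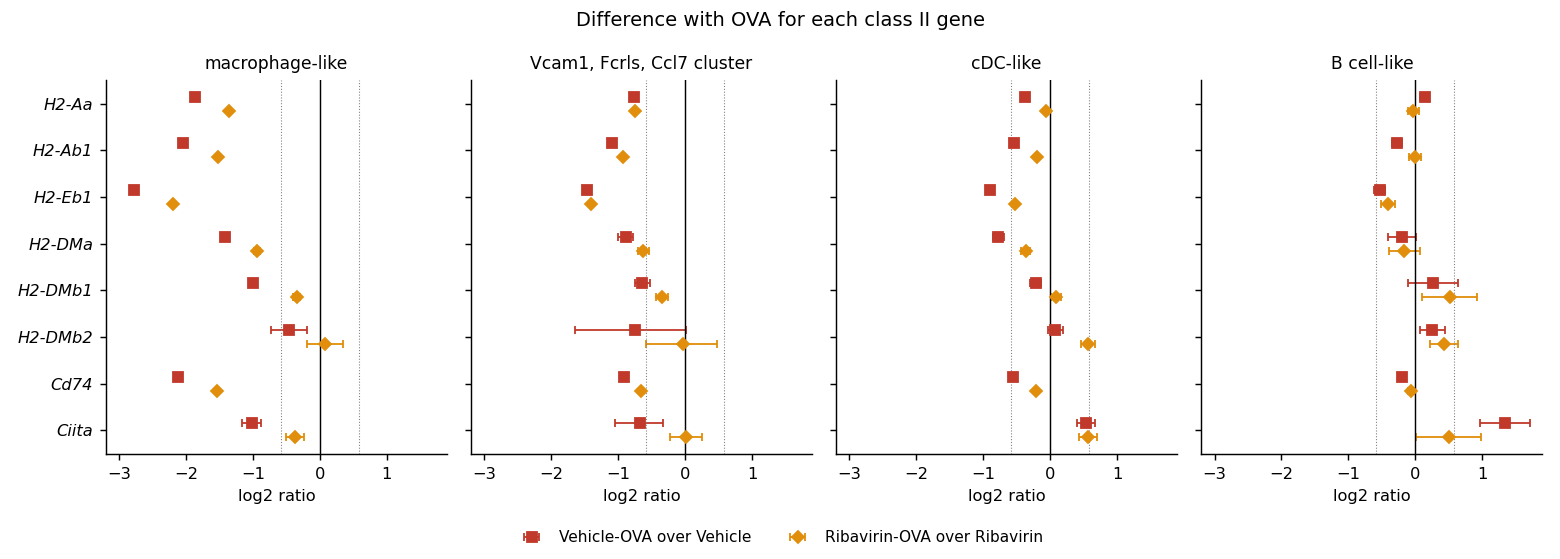
log2 ratio of the CPM with OVA to that without for each of the 8 genes in macrophage-like cells, their Vcam1 cluster, cDC-like and B cell-like cells, under vehicle (squares) and under ribavirin (diamonds), with 95% counting intervals and dotted lines at a fold of 1.5. In macrophage-like cells H2-Eb1 lies lowest (-2.78 and -2.19) and H2-DMb2 nearest to 0 (-0.46 and 0.07), and in cDC-like cells Ciita lies above 0 in both pairs (0.54 and 0.56).

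Cd74, the invariant chain gene (chr18:60803848-60812652 of GRCm38, plus strand, 9 exons), followed the chains in macrophage-like cells, at 20314, 4692, 18200 and 6286 CPM, which is 4.33-fold lower (4.3 to 4.36) and 2.90-fold lower (2.88 to 2.92) with OVA. In monocyte-like cells it was at 16458, 6948, 14600 and 7977 CPM and in cDC-like cells at 16599, 11347, 15822 and 13704 CPM. In these 3 classes Cd74 gave 599 to 727 UMIs per 1000 UMIs of the summed chains. The balance differed in other classes. Nonclassical monocyte-like cells had 1048 to 1255 Cd74 UMIs per 1000 of the chains. B cell-like cells held Cd74 at 9572, 8323, 7581 and 7261 CPM, 1052 to 1243 UMIs per 1000 of the chains, and plasma cell-like cells at 5144, 4292, 5351 and 3615 CPM, 2460 to 4928 per 1000. Plasma cell-like cells thus carried Cd74 far above the 136 to 374 CPM of neutrophil-like cells, with little chain mRNA. There Cd74 was 1.20-fold lower (1.18 to 1.22) and 1.48-fold lower (1.46 to 1.5) with OVA while the chains were not. Of the epithelial-like clusters, one led by Muc5ac, Sec14l3 and Muc2 held Cd74 at 1979, 1985 and 1300 CPM in the 3 libraries other than Vehicle (52 to 83 cells), at 1427 to 1802 UMIs per 1000 of the chains. In neutrophil-like cells this ratio was 599 to 754.

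H2-DMa, the DM alpha gene, was at 699, 260, 630 and 328 CPM in macrophage-like cells and at 860, 504, 824 and 640 CPM in cDC-like cells. With OVA it was 2.68-fold lower (2.60 to 2.77) and 1.92-fold lower (1.86 to 1.99) in macrophage-like cells, less than the chains. In cDC-like cells it was 1.71-fold lower (1.62 to 1.80) and 1.29-fold lower (1.23 to 1.35), more than the chains. Relative to the chains its level was therefore higher with OVA in macrophage-like cells (23.6, 39.7, 23.4 and 37.9 UMIs per 1000 UMIs of the chains) and lower in cDC-like cells (34.5, 30.1, 35.3 and 32.3). It was also seen where the chains were near background. In the T cell-like cluster led by Il17f, Il22 and Il17a, H2-DMa gave 201 UMIs per 1000 of the chains in Vehicle (186 to 218) and 192 in Ribavirin (173 to 213), against 26.9 (21.6 to 33.1) and 27.3 (23.2 to 31.8) in the neutrophil-like cells of the same libraries.

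The 2 DM beta genes were divided by cell class. H2-DMb1 was the myeloid one, at 520, 260, 468 and 368 CPM in macrophage-like cells and 668, 411, 593 and 491 CPM in monocyte-like cells, while H2-DMb2 stood at 12.2, 8.88, 13 and 13.7 CPM and 33.4, 16.1, 21.5 and 23.3 CPM there. In B cell-like cells the order was the reverse, with H2-DMb1 at 105, 126, 87.2 and 124 CPM and H2-DMb2 at 424, 506, 317 and 428 CPM. The number of H2-DMb2 UMIs per 1000 H2-DMb1 UMIs was 23.5 to 37.2 in macrophage-like cells, 407 to 587 in cDC-like cells and 3438 to 4018 in B cell-like cells, with no overlap of these ranges. Migratory dendritic cell-like cells stood apart from the other cDC-like cells, with 1339, 4097, 1479 and 3405 H2-DMb2 UMIs per 1000 H2-DMb1 UMIs against 384 to 511 in the Xcr1 cluster. Among cells of that cluster with UMIs of Xcr1 or Clec9a alone H2-DMb2 was at 152.5, 130.3, 153.0 and 125.8 CPM, and among those with Cd209a or Clec10a alone at 293.3, 300.3, 242.8 and 369.8 CPM. These ranges did not overlap.

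The promoters printed above place the X1 and Y boxes of both DM beta genes 28 bases apart. In their annotated transcripts the last 500 bases, from which 3' libraries are read, were 61.8% identical, and 0 of 451 stretches of 50 bases of H2-DMb2 occurred in H2-DMb1, so that reads of this length from these ends could be told apart. Over the whole transcripts the longest identical run was 221 bases, and reads from it could not. Read lengths were not given in the sources used here. With OVA, H2-DMb1 was 2.00-fold lower (1.94 to 2.07) and 1.27-fold lower (1.23 to 1.31) in macrophage-like cells. H2-DMb2 was at 257, 271, 215 and 319 CPM in cDC-like cells, with a ratio near 1 under vehicle (log2 ratio 0.08, -0.04 to 0.19) and a higher level under ribavirin (0.57, 0.46 to 0.67). Relative to the median of all genes these ratios were -0.33 and 0.17, so that the first changed direction. Among the cells with Xcr1 or Clec9a alone described above, H2-DMb2 was lower with OVA in both pairs, on 63 and 65 UMIs with OVA. Among those with Cd209a or Clec10a alone H2-DMb2 was higher in both pairs. In migratory dendritic cell-like cells it was higher with OVA in both pairs, at 120, 216, 148 and 262 CPM (log2 ratios of 0.84, 0.50 to 1.19, and 0.82, 0.48 to 1.16), while the chains there were lower. In plasma cell-like cells it was 4.05, 22.3, 3.02 and 32.3 CPM. Within their proliferating cluster it was 11.7, 63.2, 6.76 and 54.3 CPM, and in the Slpi cluster 3.45 and 10.3 CPM in the libraries with OVA.

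Ciita, the coactivator gene, gave few UMIs. It was at 140, 204, 136 and 201 CPM in cDC-like cells and 83.1, 209, 62.1 and 87.6 CPM in B cell-like cells. Monocyte-like cells held 78.4, 55.7, 71.5 and 83.7 CPM, within the wide range of B cell-like cells apart from Vehicle-OVA, macrophage-like cells 55.5, 27.4, 57.1 and 44.0 CPM and pDC-like cells 19.2, 19.1, 15.9 and 26.6 CPM. Neutrophil-like cells were at 0.34 to 2.57 CPM. After each cell was thinned to 1000 UMIs, 12.7%, 18%, 11.3% and 14.3% of cDC-like cells had a Ciita UMI, against 0.01% to 0.47% of neutrophil-like cells. Without thinning the shares were 59.6%, 58.9%, 58.1% and 58.0% against 0.11% to 0.78%, at median depths of 9578 to 12676 UMIs and 2057 to 3006.5 UMIs. Plasma cell-like cells, in which Ciita is known to be silenced, held 0.88, 6.48, 0.82 and 3.41 CPM. In their proliferating cluster no Ciita UMI was seen in Vehicle and the level was 19.1 CPM in Vehicle-OVA.

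With OVA, Ciita and the genes it drives did not differ alike. In macrophage-like cells Ciita was 2.03-fold lower (1.84 to 2.24) under vehicle and 1.30-fold lower (1.18 to 1.43) under ribavirin, against 4.52-fold and 3.12-fold for the chains. In cDC-like cells it was higher with OVA in both pairs (log2 ratios of 0.54, 0.40 to 0.67, and 0.56, 0.43 to 0.70), where the chains were lower. In the Xcr1 cluster, cells with UMIs of Xcr1 or Clec9a alone held Ciita at 133.3, 229.6, 150.9 and 158.7 CPM. Those with Cd209a or Clec10a alone held Ciita at 155.8, 243.5, 149.7 and 252.4 CPM. The difference under ribavirin was thus small in the former. In B cell-like cells it was higher under vehicle (1.33, 0.97 to 1.71), past the fold of 1.5 as were 41.7% of genes there, and under ribavirin its ratio was 0.50 (0.01 to 0.98). Relative to the median of all genes the ratio in cDC-like cells was 0.13 and 0.16, so that this difference shrank but kept its direction. Ciita UMIs per 1000 UMIs of the chains were 1.88, 4.18, 2.12 and 5.10 in macrophage-like cells, 5.63, 12.2, 5.83 and 10.2 in cDC-like cells and 9.37, 26.5, 9.79 and 15 in B cell-like cells. The ratio was higher with OVA in both pairs in 7 of 7 classes (macrophage-like, monocyte-like, nonclassical monocyte-like, cDC-like, pDC-like, B cell-like and plasma cell-like), with intervals apart in 7 under vehicle and 4 under ribavirin. In plasma cell-like cells the ratios without OVA rest on 12 and 6 Ciita UMIs, at a level within the range of neutrophil-like cells.

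Ratios between members in the same cells do not depend on how a library is scaled. In these 7 classes H2-Eb1 was lower relative to H2-Ab1 with OVA in 7 of 7 in both pairs, with intervals apart in 6 and 7. There were 963, 577, 976 and 614 H2-Eb1 UMIs per 1000 H2-Ab1 UMIs in macrophage-like cells, 880, 691, 862 and 685 in cDC-like cells and 793, 662, 878 and 658 in B cell-like cells. The B cell-like values differed in this direction where the summed chains hardly differed. In B cell-like cells macrophage markers summed to 2077, 779, 1250 and 442 CPM and monocyte markers to 1466, 451, 1071 and 573 CPM. Markers of cDC1 cells went the other way, at 152, 268, 174 and 256 CPM. The part of RNA from other cells in this shift was not tested. H2-DMa relative to both DM beta genes was lower with OVA in 7 of 7 classes as well, with intervals apart in 5 and 6, at 1313, 968, 1311 and 859 UMIs per 1000 in macrophage-like cells and 1085, 688, 1108 and 727 in cDC-like cells. H2-Aa relative to H2-Ab1 was higher in both pairs in 6 of 7 classes, the exception being B cell-like cells (1077, 1434, 1186 and 1162). Of all 8 members H2-Eb1 had the lowest ratio with OVA in 6 of 7 classes in both pairs, and Cd74 had it in plasma cell-like cells. The neutrophil-like cells, read as background, held 812, 522, 908 and 503 H2-Eb1 UMIs per 1000 H2-Ab1 UMIs.

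**Figure D5:**
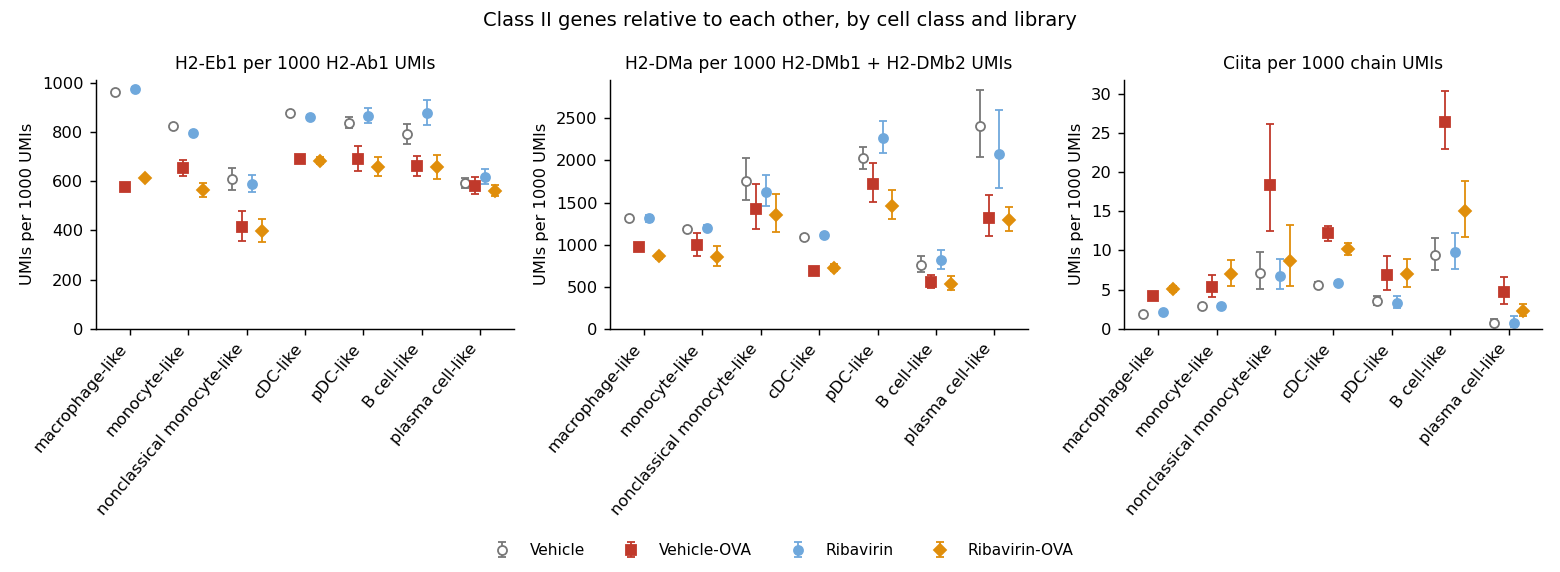
UMIs of one class II gene per 1000 UMIs of another gene or of the summed chains, by cell class and library, with 95% counting intervals. H2-Eb1 per H2-Ab1 is lower and Ciita per summed chains higher in the libraries with OVA (macrophage-like cells 963 and 976 against 577 and 614, and 1.88 and 2.12 against 4.18 and 5.10).

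Over all cells of a library the summed chains were 12322, 2978, 9107 and 3595 CPM, 4.14-fold lower (4.12 to 4.16) and 2.53-fold lower (2.52 to 2.54) with OVA. All 8 members passed the fold under vehicle, beside 13.4% of 16276 genes, and 5 of 8 under ribavirin, beside 4.01%. Both the cells present and their levels differed. When the cluster shares of the OVA library were combined with the cluster levels of the library without OVA, the total was 7034 CPM under vehicle and 5775 CPM under ribavirin. With OVA levels and shares without OVA it was 5910 and 5320 CPM. Each of these lay between the totals without and with OVA, the latter being 2914 CPM under vehicle over the 36 clusters that could be used there. The Arg1 cluster held 24.0% of the UMIs of Vehicle-OVA and 18.2% of those of Ribavirin-OVA. Its levels without OVA rest on 15 Vehicle and 51 Ribavirin cells, so the totals that use these levels are uncertain. Macrophage-like cells gave 38.1%, 60.3%, 38.8% and 56.9% of all H2-Aa UMIs and monocyte-like cells 39.5%, 4.35%, 33.1% and 3.75%. H2-DMb2 UMIs came for 55.5%, 44.8%, 58.7% and 44.2% from cDC-like cells and for 9.9%, 27.0%, 10.1% and 15.7% from B cell-like cells.

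Ribavirin and vehicle libraries were compared as the other pair of the design. Without OVA the summed chains of macrophage-like cells were 0.91 times as high in Ribavirin as in Vehicle (0.908 to 0.915), and 0 of 8 members passed the fold in either direction, beside 2.02% of genes higher and 0.583% lower. With OVA the level was higher in Ribavirin-OVA than in Vehicle-OVA by 1.32-fold (1.31 to 1.33), and Ciita alone passed the fold (1.61-fold, 1.44 to 1.79), beside 4.85% of genes higher, while no member was lower, beside 3.29%. The same order was seen in cDC-like cells (0.936 without and 1.18 with OVA) and in monocyte-like cells (0.890 and 1.15). Within the macrophage-like class, at the cluster levels given above, the Arg1 cluster was higher in Ribavirin-OVA than in Vehicle-OVA. The Vcam1 cluster was slightly lower. This cluster, with the higher level, was 144 of 2025 macrophage-like cells in Vehicle-OVA and 194 of 1432 in Ribavirin-OVA. The part of this mix in the class difference was not tested. B cell-like cells held less in Ribavirin and in Ribavirin-OVA (0.715 and 0.739). The per-cell share of the 8 genes there had a 25th percentile of 1.44%, 1.47%, 0.18% and 0.54%. Its medians were 2.06%, 1.87%, 1.56% and 1.52%, so that the low end of this uneven cluster differed more. The part of the mix of cells in this difference was not tested. All comparisons of ribavirin with vehicle share their libraries with those of OVA, and a library and its treatment cannot be told apart.

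Other genes of the pathway were taken by list. H2-Oa and H2-Ob, the genes of H2-O, which holds back H2-DM, were higher in B cell-like than in macrophage-like and cDC-like cells, at 217, 239, 177 and 194 CPM and 346, 501, 264 and 274 CPM. In macrophage-like cells both were at least 1.5-fold lower with OVA in both pairs, at 17.2, 3.6, 11.6 and 4.8 CPM for H2-Oa and 6.3, 2.1, 8.2 and 2.9 CPM for H2-Ob. In cDC-like cells H2-Oa was at 198, 120, 155 and 111 CPM and H2-Ob at 69.9, 51.1, 73.4 and 72.0 CPM, and the list counted 1 and 0 of 2 lower. H2-Eb2, a further beta chain gene, was at 66.3, 165, 28.5 and 122 CPM in B cell-like cells. Of the 6 lysosomal enzymes that act on antigen and invariant chain, 3 were at least 1.5-fold higher with OVA in macrophage-like cells in both pairs, beside 25.9% and 24.2% of all genes, and none was lower. Cathepsin L (Ctsl, log2 ratios 1.54 and 1.89) and cathepsin B (Ctsb, 1.20 and 1.71) differed most. In cDC-like cells 4 and 3 of 6 were higher, beside 37.4% and 36.2% of all genes, with Ctsd at 1.51 and 0.95 and Ctsb at 1.22 and 1.01. The median of this list in macrophage-like cells was 0.68 and 0.86, in the opposite direction to the members.

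Of the 7 genes of promoter-bound factors (the RFX and NF-Y subunits and Creb1), 1 was higher with OVA and none lower in macrophage-like cells in each pair, beside 25.9% and 24.2% of all genes higher, Creb1 under vehicle and ribavirin (0.77 and 0.65), and Nfyc had ratios of 0.56 and 0.54. In cDC-like cells 4 and 2 of 7 were higher, beside 37.4% and 36.2% of all genes, the second count being under this share, with Rfx5 at 1.19 and 1.08 and Creb1 at 0.85 and 1.15. Among 12 regulators of Ciita, of which 11 reached 50 UMIs in macrophage-like cells and 10 in cDC-like cells, 4 and 3 were higher in the former and 3 and 3 in the latter, and none was lower. These counts are near or under the shares of all genes just given. Irf4, which macrophages raise under interleukin-4, had ratios of 1.10 and 1.86, and Il4ra, the interleukin-4 receptor alpha chain, 1.20 and 0.91. In cDC-like cells Prdm1, a repressor of Ciita, was at 1.27 and 0.86 and Irf4 at 0.66 and 1.38. Of the 3 genes of class II ubiquitin ligases and Cd83, which opposes them, 2 were higher in both pairs in macrophage-like cells, March1 (0.69 and 0.62) and March8 (0.65 and 0.81), beside 25.9% and 24.2% of all genes. Cd83 was lower under vehicle (-0.94), beside 12.6%, and at -0.17 under ribavirin, and March1 in cDC-like cells was at 0.97 and 0.65. Of 3 costimulatory genes, 2 and 0 were higher in macrophage-like cells, beside 25.9% and 24.2% of all genes. In each pair 1 was lower, beside 12.6% and 9.38%. The lower one was Cd86 (-0.68 and -1.03), while Cd80 was at 1.71 and 0.25. In cDC-like cells 1 and 0 of the 3 were higher, beside 37.4% and 36.2% of all genes, and none was lower. There Cd80 was at 0.71 and 0.11 and Cd40 at 0.32 and 0.01.

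The 9 genes of MHC class I presentation served as the nearest comparison. In macrophage-like cells 3 of 9 were lower and 1 higher with OVA in both pairs, beside 12.6% and 9.38% of all genes lower and 25.9% and 24.2% higher, with a median of -0.19 and -0.01 on the log2 scale, beside -1.65 and -1.15 for the class II members. The immunoproteasome genes Psmb8 (-1.36 and -1.35) and Psmb9 (-1.06 and -0.83) and the heavy chain gene H2-D1 (-0.89 and -0.69) were the 3 lower ones, and Tapbp, the tapasin gene, was the higher one (0.89 and 0.93). In cDC-like cells 1 and 2 of 9 were lower, beside 7.73% and 6.77% of all genes, and 2 and 2 higher, beside 37.4% and 36.2%, with Psmb8 at -0.94 and -0.98 and Tapbp at 0.83 and 0.80.

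Likeness to the members was measured as Pearson's r of log2(CPM + 1) over 63 pools of cells, each a class in a library with at least 50 cells, among 12559 genes. Pools of a library share depth and free RNA, so these values are descriptions. The genes most like the summed chains were Ifi30 (0.944), which encodes the lysosomal thiol reductase of antigen processing, Dnase1l3 (0.914), Ly86 (0.899), Cd40 (0.889), Kynu (0.868), Plekho1 (0.853), Aif1 (0.833) and Ctsh (0.831). For Ciita they were Ifi30 (0.904), Plekho1 (0.882), Ly86 (0.879), Cd40 (0.879) and Kynu (0.878). Among the members outside this sum H2-DMb2 was least like the chains (0.747, against 0.919 to 0.970 for H2-DMa, H2-DMb1, Cd74 and Ciita). The genes most like it were Pkib (0.843), H2-Ob (0.821), Kynu (0.818), Siglecg (0.811) and 2810429I04Rik (0.794). Ciita was nearer to H2-DMb2 (0.806) than the chains were, and H2-DMb1 was the member farthest from it (0.650).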

How the data were processed

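The values used are UMI counts per gene and cell, deposited by the authors as 1 filtered matrix per library. The file headers and the submitters' processing notes name Cell Ranger 5.0.0, and the notes name mm10. The annotation release was not given in the sources used here. A cell was kept if it held 200 genes or more and 500 UMIs or more, with less than 10% of its UMIs mitochondrial, predicted doublets (0.4% per 1000 cells) were removed, and cells of all libraries were clustered (2000 variable genes without the class II genes, 30 components, 15 neighbours, Leiden resolution 1, leidenalg 0.10.2, Python 3.11.15). Counts were summed per class and library. With 1 library per group no test was run. A gene with at least 50 UMIs in a class was counted as higher or lower past a CPM ratio of 1.5, with a pseudocount of 1 CPM. Intervals are exact Poisson, Clopper-Pearson or conditional binomial intervals and cover counting error only, and the computation was tested on simulated data. The text names all 8 members, in each list the 2 genes that differed most, and the genes most like the members over pools of cells. The members and the lists were chosen with earlier results of these data known, and some genes of the lists were named after their values were seen. Other scalings, filters and clusterings were tried.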

Additional observations from a re-analysis of the deposited data

Results flagged for a closer look

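In 2 cases the ratio with OVA had opposite directions under vehicle and under ribavirin, with neither interval reaching 0, which is what drew attention to them. The difference between the pairs was not tested, since each group is 1 library. Over all cells the log2 ratio of H2-DMb2 was -0.62 (-0.70 to -0.54) under vehicle and 0.13 (0.06 to 0.21) under ribavirin. Relative to the median of all genes it was -0.66 and -0.19. In cDC-like cells the log2 ratio of H2-DMb1 was -0.22 (-0.30 to -0.13) under vehicle and 0.09 (0.01 to 0.17) under ribavirin, and relative to the median of all genes -0.62 and -0.31. The opposite directions were therefore not seen on that scale.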

How the results depend on the processing

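The log2 ratio of the summed chains with OVA is given for vehicle and then ribavirin. Relative to the median of all genes it was -2.09 and -1.66 in all cells, -2.36 and -1.86 in macrophage-like cells, -0.98 and -0.64 in cDC-like cells (6 and 4 members 1.5-fold lower) and -0.61 and -0.38 in B cell-like cells (4 and 1). With a mitochondrial limit of 5% it was -2.06 and -1.30, -2.21 and -1.68, -0.61 and -0.29, and -0.23 (1 member lower) and 0.076. With a limit of 20% it was -2.03 and -1.36 in all cells and -1.62 in macrophage-like cells under ribavirin. With doublets kept it was -2.03 and -1.31, -2.25 and -1.65, -0.53 in cDC-like cells under vehicle, and -0.22 (1 member lower) and -0.053 in B cell-like cells. In macrophage-like cells it was -1.33 and -1.08 at resolution 0.5, -2.19 and -1.66 with the class II genes kept in the clustering, and -2.08 and -1.55 with clusters 2 (monocyte-like) and 18 (unnamed) added, an alternative chosen after seeing the data. With each library clustered alone it was -2.14 and -1.63 in macrophage-like cells and, under ribavirin, -0.20 in cDC-like and 0.067 in B cell-like cells. The vehicle value for cDC-like cells could not be had there. With each cell assigned by its marker UMIs it was -2.05 and -1.57, -1.0 and -0.60 (6 and 2 members lower), and -0.48 (1 member) and -0.20. From the mean CPM of single cells it was -2.22 and -1.25 in all cells, -2.22 and -1.70, -0.51 and -0.33 (1 member under ribavirin), and -0.011 and -0.040. Over all alternatives it ran from -2.02 to -1.24 and from -2.00 to -0.77 in monocyte-like cells, from -2.82 to -1.27 and from -2.21 to -0.89 in nonclassical monocyte-like cells, from -1.26 to -0.90 and from -0.61 to 0.018 in pDC-like cells, and from -0.38 to 0.34 and from -0.25 to 0.49 in plasma cell-like cells. The cause of these shifts was not tested. Of the alternative values, 9 of 166 for the summed chains and 28 of 478 for single members had the other direction. The Ly6i cluster's name rested on a narrow margin, since rounding in an earlier clustering left it unnamed. No paired analysis was possible because each group holds 1 library. Beside the single library per group, low cell numbers limit several values, such as the 15 Vehicle cells of the Arg1 cluster, the 53 and 60 migratory cells and the 92 monocyte-like cells with OVA.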
